A study of Mus musculus with 18 samples.

Results

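Motor neurons of the facial nucleus, the brainstem nucleus that drives the muscles of the face, were compared with ventral spinal cord tissue in wildtype mice, 3 arrays against 3. The arrays were chosen by their labels alone and are 6 of the 18 of the series. The other 12 hold wildtype spinal motor neurons, SOD1 mutant facial motor neurons, SOD1 mutant spinal motor neurons and SOD1 mutant ventral cord, 3 of each. No transgene or treatment is named for the groups compared, every RNA was amplified linearly with a T7 method, and the labels do not name the SOD1 allele of the mutants. They also do not say how motor neurons were picked, how many cells or animals were pooled, the sex, the batch, or what D60 in the titles stands for. Samples are not tied to animals, so the error behind each p-value is the scatter of these arrays, which could be technical alone.

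Motor neurons release acetylcholine onto muscle and are specified in the embryo by transcription factors such as Isl1 and Mnx1, with Tbx20 acting in cranial ones. Hox genes record position along the body axis: hindbrain cells carry the low-numbered paralogs, and spinal cells add the higher-numbered ones. Ventral cord tissue holds its own motor neurons beside interneurons, glia and vessels, so a difference from facial motor neurons mixes cell type with body region. Genes of neurons in general, of motor neurons and of position were therefore examined apart. In RNA of many cells, fewer cells of a type and less RNA per cell cannot be told apart.

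Levels are log2(intensity + 16), quantile normalized over the 18 arrays, with 1 probe set per gene, and differences are on that scale, which understates those of dim genes. The background level was set at 8.79, where 40% of genes lie below, and against a group mean under it no fold is given. The size and order of log2 differences from such a group depend on the background level and are given as measured. The median intensity was 286 to 307 on the facial arrays and 533 to 559 on the cord arrays. Actin's control probe sets read higher at the 3' than at the 5' end, by a ratio of 59.7 to 74.4 on the facial arrays and 1.59 to 1.70 on the cord arrays. This gap coincides with the comparison, and its part in the results was not tested. Arrays carry no read depth, and 3 per group limit the precision.

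Facial motor neurons and cord tissue differed over most expressed genes. In limma with Benjamini-Hochberg adjustment, 7451 of 10916 tested genes passed an adjusted p of 0.05, with 4510 higher and 2941 lower in facial motor neurons. These are 68.3% of the tested genes, 41.3% higher and 26.9% lower, and the counts of each gene list below are to be read against them. The groups of 3 arrays did not overlap for 73.1% of the tested genes. Differences of 8-fold or more were mostly downward, with 95 genes higher and 250 lower. The median over all tested genes was 0.22, with quartiles at -0.60 and 0.94. Of the called genes 60.5% were higher, against 48.5% with no normalization between arrays and 78.5% with each array shifted to a common median. The median of all genes was -0.08 and 0.77 under these scalings, so a small difference has no settled sign.

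The facial label was checked against markers of motor neurons and of position. Prph, the intermediate filament peripherin, read 16, 15.68 and 15.83 on the facial arrays and 12.49, 12.08 and 11.69 in cord. The groups lay more than 3 units apart, and Prph was 13.4-fold higher (log2 difference 3.75 ± 0.19, SE, adjusted p = 1.62e-06 in limma). Tbx20, a T-box factor of cranial motor neurons, read 11.27, 10.45 and 10.96 in facial motor neurons and 5.58, 4.22 and 6.19 in cord, where it was near background. Its mean was under the brightness filter, and in limma without that filter the difference was 5.56 (adjusted p = 6.77e-05). Phox2a, a factor of cranial visceral motor neurons, was near background in both groups, at 8.44 and 6.96. No Hox gene of paralog groups 5 to 13 had a facial mean above background on its brightest probe set.

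**Figure D1:**
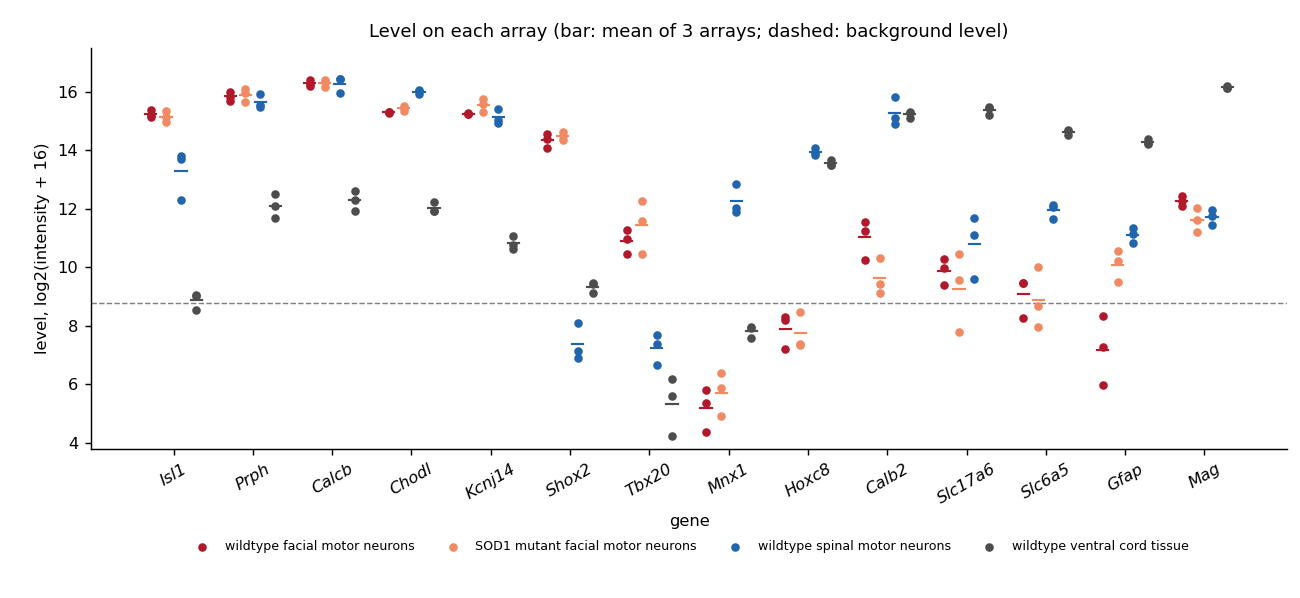
Level, as log2(intensity + 16), of 14 genes in wildtype facial motor neurons, SOD1 mutant facial motor neurons, wildtype spinal motor neurons and wildtype ventral cord; each point is 1 array, each bar the mean of 3 arrays, and the dashed line the background level of 8.79. Isl1, Prph, Calcb, Chodl and Kcnj14 lay above cord in all 3 motor neuron groups, Shox2 and Tbx20 were high in facial motor neurons, and Mnx1 and Hoxc8 were high in spinal motor neurons and near background in facial ones.

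Of the transcription factors shared by motor neurons, Isl1 stood far above cord. Isl1, a LIM-homeodomain factor that specifies motor neurons, read 15.13, 15.39 and 15.20 in facial motor neurons and 9.05, 9.03 and 8.52 in cord. The cord arrays lay close to the background level, and the difference was 6.37 (± 0.17, SE, adjusted p = 2.05e-07 in limma), with 5.21 from its other bright probe set. Isl2, its close relative, was barely apart at 9.35 against 8.47, and its difference of 0.87 (adjusted p = 0.0269) lost the call without facial array 3 (0.76) or cord array 1 (0.92), 2 (0.82) or 3 (0.89), with no normalization (0.07), and with no brightness filter. Of 11 members on the arrays, 9 were tested, 2 were higher and 5 lower, with a median of -1.45. The lower ones were the LIM cofactors Ldb1 and Lmo4 and the helix-loop-helix factors Ebf1, Ebf2 and Ebf3. Ebf2 and Ebf3 passed the brightness filter through their cord level, with facial means of 7.32 and 7.73, and Isl2 through its facial level. The counts and the median of this list rest in part on them. Ebf1 read 9.44, 9.70 and 9.22 against 12.37, 12.30 and 11.97 in cord, and was 6.77-fold lower (-2.76 ± 0.20, adjusted p = 8.39e-06). Ebf3 was uneven in facial motor neurons, at 5.34, 9.56 and 8.28, and even in cord, at 13.20, 13.22 and 13.18.

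Factors known from spinal motor neurons were partly present. Lhx4, a LIM-homeodomain factor of young motor neurons, read 11.31, 11.02 and 11.12 against 8.71, 9.08 and 8.83, without overlap. With cord at the background level, the difference was 2.28 (± 0.21, SE, adjusted p = 3.49e-05 in limma). Pou3f1, a POU-domain factor, passed at 1.0 (adjusted p = 0.00645), but its other bright probe set gave -2.68, and the call was lost with no normalization (0.18) and with all 18 arrays in one fit (adjusted p = 0.173). Of 11 members on the arrays, 6 were tested, 2 were higher and none lower, with a median of -0.01. Mnx1, the HB9 factor of somatic motor neurons, was near background in both groups, at 5.79, 4.35 and 5.37 in facial motor neurons and 7.92, 7.57 and 7.96 in cord. Foxp1, which marks limb-innervating motor neurons, did not pass at -0.20. It passed at 0.44 (adjusted p = 0.0366 in limma) without facial array 1, where it read 10.80 against 13 and 12.43 on the other facial arrays. Its 5 other bright probe sets lay between -5.02 and 0.88.

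Genes of motor neuron effectors and signals were mostly higher. Like every list here, this one was chosen with earlier results of these data known, so its counts are descriptive only. Of 18 tested members 15 were higher and 1 lower, with a median of 2.08 against 0.22 for all genes, and the counts were 13 and 2 with no normalization and 17 and 0 with a common median. Calcb, the beta calcitonin gene-related peptide, read 16.25, 16.40 and 16.20 against 12.62, 12.31 and 11.93 in cord. The groups did not overlap, and Calcb was 15.9-fold higher (3.99 ± 0.16, SE, adjusted p = 6.96e-07 in limma). Anxa4, a calcium-dependent membrane-binding protein, was the next at 14.8-fold (3.89 ± 0.10). Chodl, chondrolectin, a marker of fast motor neurons, read 15.30, 15.27 and 15.30 against 12.22, 11.92 and 11.93, a 9.61-fold difference (3.26 ± 0.10, adjusted p = 2.89e-07). Mmp9, the matrix metalloproteinase of fast motor neurons, was 4.03-fold higher at 11.60, 11.45 and 11.45 against 9.58, 9.41 and 9.49. Slit2, a secreted guidance cue, was higher by 2.16 and Ahnak2, a large scaffold protein, by 2.86. Uts2, urotensin 2, varied widely among facial arrays, at 12.98, 10.66 and 12.20, and its difference of 1.63 lost the call without facial array 3 (1.5), cord array 1 (1.59) or cord array 3 (1.6), and with no normalization (1.03). Prkcd, a protein kinase C, was the 1 lower member, at -0.69, and is named here after its value was seen.

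Receptors for muscle-derived and glial trophic factors split in direction. Of 11 tested members 4 were higher and 4 lower, with a median of 0.25. The GDNF receptor pair was high: Gfra1 read 14.42, 14.94 and 14.66 against 11.81, 11.35 and 11.26, and was 9.19-fold higher (3.20 ± 0.18, SE, adjusted p = 2.91e-06 in limma). Ret, the kinase that Gfra1 engages, read 14.97, 14.92 and 14.95 against 12.79, 12.60 and 12.39 and was 5.12-fold higher (2.36 ± 0.11). Another probe set of Ret gave -1.43, and the other 2 of Gfra1 gave -1.72 and 1.27. Lifr, a receptor subunit of the LIF family, was 1.94-fold higher. Cntfr, the binding subunit for ciliary neurotrophic factor, was 1.99-fold lower at 10.15 against 11.14, and Erbb3, a neuregulin receptor also found in glia, was 2.17-fold lower. Il6st, the shared signalling subunit, passed at 0.62 but not without facial array 3 (0.58), and its other probe sets lay between -4.03 and -1.03.

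Few genes of acetylcholine handling passed against cord, which holds cholinergic neurons of its own. Of 7 tested members 2 were higher and 1 lower, with a median of 0.35. With no normalization 1 was higher and 3 lower, with a median of -0.20, and with a common median 4 were higher and 1 lower, with a median of 0.64. Chat, the enzyme that makes acetylcholine, was dim at 7.80, 9.87 and 9.37 in facial motor neurons and 7.63, 7.97 and 7.10 in cord, overlapping, and in limma without the brightness filter it did not pass at 1.45 (adjusted p = 0.0771). With the filter off, Chat did pass in mutant facial motor neurons against mutant cord, at 2.38 (adjusted p = 0.0024 in limma). It also passed in wildtype spinal motor neurons against cord, at 1.87 (adjusted p = 0.0221). Slc18a3, the vesicular acetylcholine transporter, read 12.20, 12.22 and 12.26 against 11.44, 12 and 12.18 and did not pass at 0.35 (adjusted p = 0.132 in limma), but did with a common median, at 0.89 (adjusted p = 8.64e-04). Ache, acetylcholinesterase, was 1.96-fold higher at 14.41 against 13.44 (0.97 ± 0.11, SE, adjusted p = 1.04e-04). Prima1, which anchors that enzyme in the membrane, passed at 0.58, a call lost with no normalization (0.25, adjusted p = 0.121). Chrna7, a nicotinic receptor subunit, was the lower one at 10.72 against 11.65, 1.90-fold.

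The largest differences upward outside these lists came with little variation among arrays. Shox2, a homeodomain factor, had the largest difference after Isl1 among the tested genes, at 14.56, 14.06 and 14.40 against 9.45, 9.11 and 9.44. It was 32.2-fold higher (5.01 ± 0.17, SE, adjusted p = 4.3e-07 in limma), and its other bright probe set gave 3.06. Amhr2, the receptor for anti-Mullerian hormone, read 14.51, 14.39 and 14.40 against 10.32, 9.72 and 9.86 and was 22.1-fold higher (4.47 ± 0.17). The cytoplasmic protein S100a10 was 19.5-fold, the G protein subunit Gna14 18.3-fold, the cell cycle subunit Cks1b 15.6-fold and the Wnt enhancer Rspo2 15.2-fold higher. Htr3a, the ionotropic serotonin receptor, read 12.98, 13.60 and 13.36 in facial motor neurons and was near background in cord at 8.46, 8.96 and 8.90, a difference of 4.54 ± 0.22. Ttr, transthyretin, known from choroid plexus, read 11.42, 10.96 and 11.36 against 6.35, 7.36 and 6.44, near background.

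Several genes that were bright in cord were near background in facial motor neurons. Tac2, the neurokinin B precursor, read 5.09, 5.42 and 5.11 against 13.73, 13.66 and 13.39 in cord, a difference of -8.39 ± 0.25 (SE). Sst, somatostatin, read 6.94, 9.08 and 8.72 against 14.56, 14.58 and 14.60. Nrn1, neuritin, read 7.76, 8.13 and 7.20 against 14.35, 14.59 and 14.39, a difference of -6.74 ± 0.24. The other named ones were Serpinb1b at -8.01, the pentraxin Nptx1 at -7.23, the apelin receptor Aplnr at -6.78, the myelin protein Pllp at -6.65, S100a9 at -6.60 and the scaffold Mapk8ip1 at -6.59.

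Wildtype spinal motor neurons were set against the same cord arrays, to see what motor neurons of both sites showed. Their actin 3' to 5' ratio was 40.9 to 56.9 and their median intensity 295 to 309. The gap between facial and cord arrays was thus present here too, and its part in the shared differences was not tested. The comparisons share the cord arrays, so their values are given side by side only. In spinal motor neurons 6404 genes, or 58.7%, passed against cord, 35.5% higher and 23.1% lower, and 67% did not overlap. Isl1 differed from cord by 6.37 in facial and 4.4 in spinal motor neurons, Prph by 3.75 and 3.55, and Calcb by 3.99 and 3.98. Kcnj14, an inward-rectifier potassium channel, differed by 4.42 and 4.31, Amhr2 by 4.47 and 4.41, and Grin3b, an NMDA receptor subunit, by 3.32 and 3.40. Isl2 differed by 0.87 in facial and 2.72 in spinal motor neurons, and Uts2 by 1.63 and 3.53.

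The direct test of facial against spinal motor neurons called 432 of 10916 genes, or 3.96%, with 199 higher in facial (1.82%) and 233 lower (2.13%), and the groups did not overlap for 28.5%. At an unadjusted p under 0.05 there were 2348. The count of calls depended on single arrays: it was 59 without facial array 3, 74 without spinal array 3, 107 without facial array 2, 209 without facial array 1 and 687 without spinal array 2. Shox2 read 14.56, 14.06 and 14.40 in facial and 7.12, 8.10 and 6.88 in spinal motor neurons, where it was near background, a difference of 6.97 ± 0.35 (SE, adjusted p = 5.9e-05 in limma). Mnx1 was the reverse, near background in facial motor neurons and at 11.88, 12.86 and 12.01 in spinal ones, a difference of -7.08 ± 0.60 (adjusted p = 8.09e-04). Bex1, a small brain-expressed protein, read 13.78, 14.62 and 14.38 in facial and 11.11, 10.34 and 9.77 in spinal motor neurons, and was 3.85 ± 0.35 higher. Calb2, the calcium buffer calretinin, read 11.55, 10.25 and 11.25 against 14.89, 15.82 and 15.10, a difference of -4.25 ± 0.35, and spinal motor neurons did not pass against cord, at 15.27 against 15.23. They did pass at 0.53 (adjusted p = 0.0401 in limma) with no normalization and at 1.36 with a common median. The difference was -1.79 ± 0.23 for Chrna7 and -4.09 ± 0.40 for Nrn1. These 6 genes passed with each of the 6 arrays left out in turn.

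Other calls between the motor neuron sites were lost with 1 array left out, while the differences kept about the same size. Isl1 was 1.97 ± 0.34 higher in facial motor neurons (adjusted p = 0.0186 in limma), with spinal arrays at 13.80, 12.31 and 13.71, and lost the call without facial array 2 (1.89), facial array 3 (1.99) or spinal array 3 (2.18), and with no variance trend. Isl2 was -1.85 and lost it without the same arrays (-1.84, -1.96 and -1.89). Tbx20 was 3.65 ± 0.50 higher, with spinal arrays near background at 7.37, 6.67 and 7.69, and lost the call without facial array 3 (3.62). Htr3a was 2.79 higher and lost it without facial array 2 (2.64), facial array 3 (2.77) or spinal array 3 (2.59), and with no variance trend. Mmp9 was -1.93 ± 0.27 and lost it without spinal array 3 (-1.97).

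Hox genes of the higher-numbered groups were near background in facial motor neurons, and most were above it in spinal motor neurons and cord. Of 23 genes of paralog groups 5 to 13 on the arrays, each by the mean of its brightest probe set, 15 were above background in cord, 14 in spinal motor neurons and 0 in facial motor neurons. Their mean level per array was 9.951 to 10.045 in cord, 9.60 to 9.79 in spinal motor neurons and 6.59 to 6.64 in facial ones. Only 10 of the 23 passed the brightness filter, through their cord level, so no count of calls is given for them. Hoxc8, a thoracic gene, read 8.28, 7.19 and 8.18 in facial motor neurons and 13.67, 13.51 and 13.49 in cord, a difference of -5.67 ± 0.29 (SE). Its spinal motor neuron arrays were at 13.90, 14.07 and 13.82, and facial against spinal it was -6.05 ± 0.33. Hoxb5, a brachial and cervical gene, read 5.07, 4.87 and 6.20 against 12.98, 12.85 and 12.50 in cord and 12.70, 12.32 and 11.91 in spinal motor neurons. Hoxd8 was -7.37 ± 0.28 against cord, with -6.60 from another probe set. Hoxa5 was -7.32 ± 0.63, but its other bright probe set gave only -0.41. Hoxc10, a lumbar gene, read 8.64, 8.06 and 8.83 against 11.98, 12.07 and 12.15. Hoxa9 was uneven on the facial arrays, at 10.25, 6.27 and 9.58, so that 2 of 3 lay above the background level.

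Low-numbered Hox genes were dim in facial motor neurons too. Of 10 genes of paralog groups 1 to 4 on the arrays, 7 were above background in cord, 4 in spinal motor neurons and 1 in facial motor neurons. The 1 was Hoxb3, at 9.88, 9.97 and 9.44 against 11.04, 10.77 and 11 in cord (-1.18 ± 0.21, SE, adjusted p = 0.00143 in limma). Hoxb2, a hindbrain gene, read 8.81, 8.57 and 8.19 against 10.48, 10.64 and 10.57. Hoxb1, which in the embryo marks the segment that gives rise to facial motor neurons, was near background in both, at 7.60 and 6.02. Hoxc4, a gene of the cervical cord and below, read 4.96, 5.04 and 5.99 against 11.89, 11.79 and 11.67, and in limma without the brightness filter its difference was -6.45 (adjusted p = 4.11e-06).

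**Figure D2:**
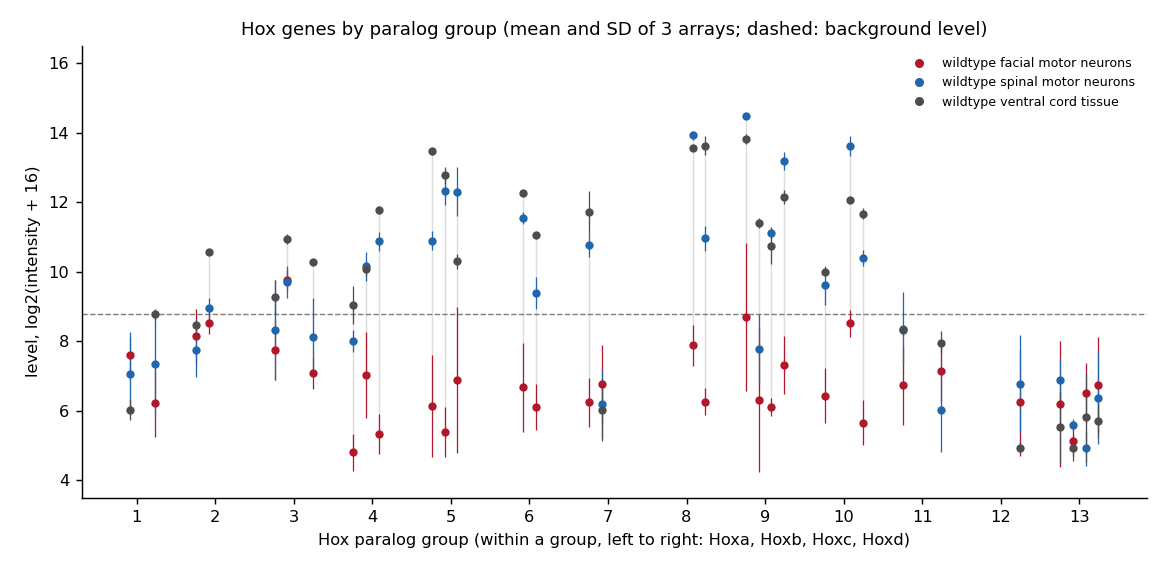
Mean level and SD of 3 arrays, as log2(intensity + 16), of the Hox genes on the arrays in order of paralog group, in wildtype facial motor neurons, spinal motor neurons and ventral cord; the dashed line is the background level of 8.79. From group 5 on no facial mean is above the line, while 15 cord means and 14 spinal motor neuron means are.

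Positional cofactors and regional factors of other families went both ways. Of 18 such genes on the arrays 8 were tested, 4 were higher and 1 lower, with a median of 0.52, and the counts were 3 and 2 with no normalization. Meis2, a Hox cofactor, read 13.42, 13.06 and 13.31 against 11.86, 11.73 and 12.23 and was 2.50-fold higher (1.32 ± 0.16, SE, adjusted p = 1.71e-04 in limma). It was also 1.55 higher than in spinal motor neurons, a call lost without facial array 3 (1.52). Irx3, an Iroquois factor, was 4.07-fold higher than in cord at 13.48, 12.36 and 12.82 against 11.13, 10.85 and 10.60, and spinal motor neurons lay higher still at 14.31. Pbx3 was 1.82-fold higher, while a dimmer probe set gave -0.97. Nr2f1 passed at 0.57, not with no normalization (0.30, adjusted p = 0.0846), and Meis3 at -0.74, not without cord array 2 (-0.67) or 3 (-0.72) or with all 18 arrays in one fit. Among factors of cranial motor neurons and their neighbours, Nkx2-2, which marks the progenitor domain of visceral motor neurons and is kept in oligodendrocyte lineage cells, was near background in facial motor neurons at 8.24, 8.56 and 8.53 against 11.86, 11.50 and 11.68. Tbx3 passed at 0.93 and lost the call without facial array 3 (0.98), cord array 1 (0.75) or cord array 2 (0.90), in a fit of all 18 arrays, with no brightness filter and with no normalization (0.12).

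Genes that mark neurons in general were high in both samples and were more often lower than higher in facial motor neurons. Of 28 tested members 7 were higher and 18 lower, with a median of -0.69, but with each array shifted to a common median 16 were higher and 8 lower, with a median of 0.52. That scaling lifts all genes, and relative to the median of all genes the list lay at -0.91, -0.25 with no normalization and -0.25 with a common median. All 28 were above background in both groups. Snap25, the synaptic SNARE protein, read 16.15, 16.28 and 16.27 against 17.23, 17.09 and 17.10, and Rbfox3, the NeuN antigen, 14.73, 14.64 and 14.53 against 15.15, 15.17 and 15.04. Their differences of -0.91 and -0.48 turned to 0.50 and 0.82 with a common median, and another probe set of Snap25 gave 2.71. Syt1, the calcium sensor of vesicle release, kept its direction in each scaling, at 11.75, 11.85 and 11.81 against 14.79, 14.89 and 14.91, 8.35-fold lower. Its 3 other bright probe sets gave smaller differences, between -2.14 and -0.01. The microtubule protein Mapt was 4.66-fold lower. Eno2, neuron-specific enolase, did not pass at 16.24 against 16.14.

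**Figure D3:**
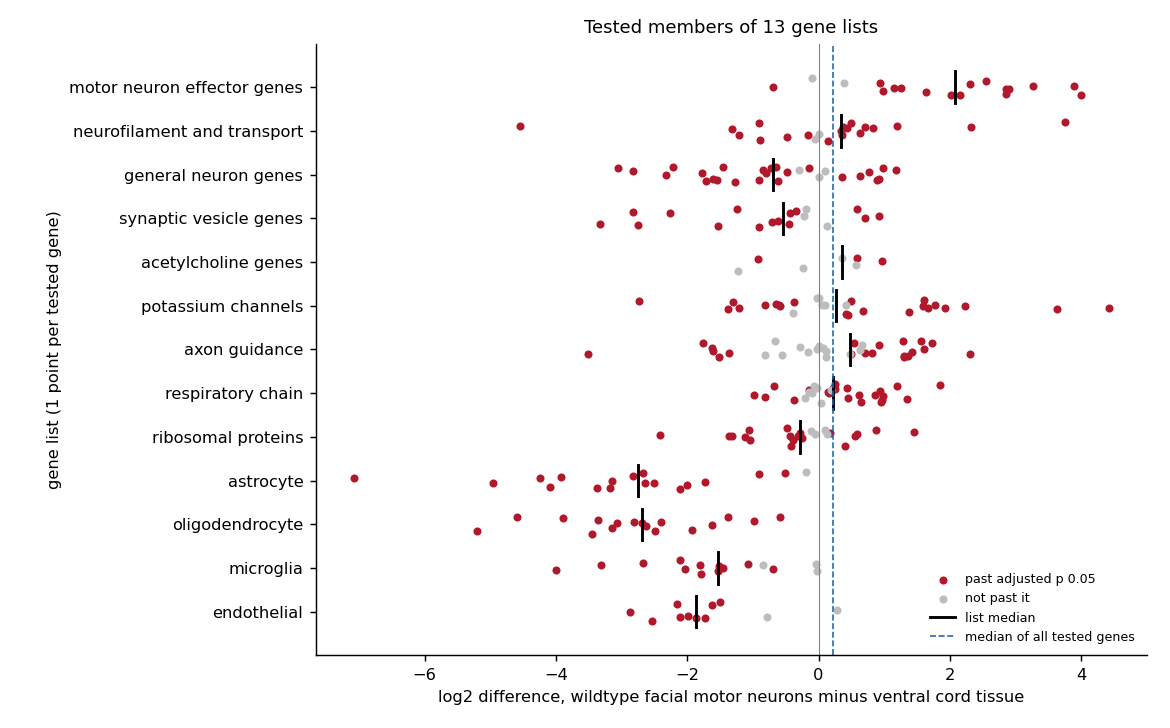
Log2 difference, wildtype facial motor neurons minus ventral cord, of each tested member of 13 gene lists; red points passed an adjusted p of 0.05 in limma, grey ones did not, black bars are list medians, and the blue dashed line is the median of all tested genes, 0.22. Motor neuron effector genes lie mostly to the right (median 2.08) and astrocyte and oligodendrocyte genes to the left (-2.75 and -2.69). Some glial members passed the brightness filter through their cord level. The lists were chosen with earlier results of these data known. A common median lifts all genes and turns the sign of the general neuron, synaptic vesicle and ribosomal medians; relative to all genes the first and the second of these lists stayed lower.

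Synaptic vesicle genes resembled the general neuron genes. Of 18 tested members 3 were higher and 12 lower, with a median of -0.54, against 9 higher and 6 lower and a median of 0.45 with a common median. Relative to all genes the median was -0.76, and -0.32 in both other scalings. Cplx2, a complexin that clamps vesicle fusion, read 10.28, 9.94 and 10.14 against 13.38, 13.47 and 13.49 and was 10-fold lower (-3.33 ± 0.14, SE, adjusted p = 7.08e-07 in limma). Sv2a, a vesicle membrane protein, was 6.72-fold lower at 11.64 against 14.38.

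The cytoskeletal and transport genes of large axons went both ways, with more higher than lower, as over all tested genes. Of 21 tested members 12 were higher (57.1%, against 41.3% of all tested genes) and 7 lower (against 26.9% of all tested genes). The list median was 0.34 against 0.22 for all genes. It lay 0.90 above that of all genes with no normalization and with a common median. Sncg, gamma-synuclein, read 16.72, 16.74 and 16.80 against 14.39, 14.75 and 14.17 and was 4.99-fold higher (2.32 ± 0.13, SE, adjusted p = 2.8e-06 in limma). Tubb2a, a beta-tubulin, was 2.29-fold higher. The neurofilament subunits were bright in both groups: Nefl was 17.49 against 17.12 (another probe set gave -0.52), Nefm 16.62 against 16.78 and Nefh 16.64 against 16.51. The differences of Nefm and Nefh, -0.16 and 0.14, lost their calls without facial array 3 (-0.14 and 0.14) or cord array 2 (-0.17 and 0.11), Nefm also without cord array 1 (-0.13), and Nefh also without facial array 1 (0.11) or cord array 3 (0.15). Both calls were also lost with no variance trend, no brightness filter or all 18 arrays in one fit, and Nefm turned to 1.35 with a common median and 0.51 with no normalization. Kif5b, a conventional kinesin, was 2.50-fold lower, a difference that was 0.01 with a common median.

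Potassium channels included some of the highest genes. Of 28 tested members 13 were higher and 9 lower, with a median of 0.26, and 19 and 2 with a common median. Kcnj14 read 15.23, 15.24 and 15.26 against 10.61, 11.08 and 10.77, without overlap, and was 21.4-fold higher (4.42 ± 0.13, SE, adjusted p = 2.48e-07 in limma). Kcnmb4, an accessory subunit of large-conductance channels, read 15.08, 14.47 and 14.76 against 11.23, 11.12 and 11.08 and was 12.3-fold higher. Kcnc4 was 4.69-fold higher, but another of its probe sets gave -2.87. Kcna1, a delayed rectifier of axons, was 1.56-fold lower at 15.44 against 16.09, and was 0.83 with a common median and -0.02 with no normalization.

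Sodium, calcium and pacemaker channels were divided. Of 21 tested members 7 were higher and 10 lower, with a median of -0.27, which was 0.05 with a common median. Scn1a, a sodium channel, was 1.66-fold higher at 15.57 against 14.84, and Cacna2d3, a calcium channel subunit, 2.20-fold higher. Hcn2, a pacemaker channel, read 10.44, 9.61 and 10.26 against 13.48, 13.46 and 13.46 and was 10.3-fold lower (-3.36 ± 0.21, SE, adjusted p = 4.71e-06 in limma). Cacna1e, the R-type calcium channel, was near background in facial motor neurons at 8.95, 7.88 and 8.17 against 12.17, 12.50 and 12.32. It passed the brightness filter through its cord level, which bears on the counts of this list.

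Glutamate receptors also went both ways, with 5 higher and 6 lower of 17 tested and a median of -0.01. Grin3b, an NMDA receptor subunit known from motor neurons, read 12.19, 12.33 and 12.27 and lay at the background level in cord, at 8.93, 8.79 and 9.09. The difference was 3.32 (± 0.17, SE, adjusted p = 1.69e-06 in limma). Among AMPA receptor subunits, Gria3 was 2.24-fold higher, Gria2, the subunit that limits calcium entry, 5.34-fold lower at 12.35 against 14.77, and Gria1 did not pass at -0.01, or 0.74 with a common median. Grm7, a presynaptic metabotropic receptor, was 2.33-fold higher and Grm3, also an astrocyte gene, 3.72-fold lower.

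Receptors for inhibitory transmitters and neuromodulators had a few strong members. Of 13 tested receptors for GABA and glycine 4 were higher and 6 lower, with a median of -0.14, or 0.74 with a common median. Glra1, the adult glycine receptor subunit, was 3.04-fold lower at 13.25 against 14.86, and Gabra3, a GABA receptor subunit, 12.4-fold lower at 10.11 against 13.74. Glra2 was 2.66-fold higher, a call lost with all 18 arrays in one fit (adjusted p = 0.092). Of 11 tested neuromodulator receptors 3 were higher and 4 lower. Htr3a, among the higher ones, passed the brightness filter through its facial level, which bears on this count. Trhr, the receptor for thyrotropin-releasing hormone, read 14.20, 13.67 and 13.93 against 11.38, 11.44 and 11.26 and was 5.96-fold higher (2.58 ± 0.15, SE, adjusted p = 3.06e-06 in limma).

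Calcium-binding proteins were low. Calb1, calbindin, read 8.29, 7.85 and 6.93, near background, against 13.75, 13.69 and 13.84 in cord, a difference of -6.07 ± 0.32 (SE, adjusted p = 1.98e-06 in limma). Calb2 was 18.6-fold lower than in cord (-4.21 ± 0.30), and the neuronal calcium sensors Hpca and Ncs1 were 14.7-fold and 4.37-fold lower. The plasma membrane calcium pump Atp2b1 was 2.13-fold higher. Of 13 tested members of the list 3 were higher and 7 lower, with a median of -0.81, and 6 and 5 with a common median. Calb1 passed the brightness filter through its cord level, so these counts and the median rest in part on it.

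Axon guidance and adhesion genes included several bright ones in facial motor neurons. Of 33 tested guidance genes 14 were higher and 6 lower, with a median of 0.48, but 7 higher and 12 lower with a median of -0.24 with no normalization. Sema3c, a secreted semaphorin, read 14.53, 14.24 and 14.33 against 12.33, 11.98 and 11.89 and was 4.93-fold higher (2.30 ± 0.14, SE, adjusted p = 3.9e-06 in limma), with -0.40 from another probe set. Nrp1, a semaphorin co-receptor, was 3.33-fold higher. Efnb3, a midline ephrin, was 11.4-fold lower at 10.79 against 14.30. Of 17 tested cadherins and protocadherins 9 were higher and 3 lower, with a median of 0.45. Cdh22 was 4.10-fold higher at 14.08, 13.59 and 13.87 against 11.62, 11.71 and 12.10, and Cdh6 4.28-fold higher, with another probe set at -2.08. Pcdh8 was near background in facial motor neurons at 6.59, 6.53 and 5.53 against 12.21, 11.76 and 11.69. It passed the brightness filter through its cord level, which bears on the count of lower cadherins and protocadherins.

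Genes of energy supply and ribosomes moved with the scaling. Of 29 tested respiratory chain genes 17 were higher and 5 lower, with a median of 0.22, the same as for all genes. With no normalization 25 were higher and 1 lower, and with a common median 29 were higher, and both put the list 0.90 above all genes. Ndufa5, a complex I subunit, read 16.93, 16.86 and 16.90 against 14.97, 15.07 and 15.11 and was 3.6-fold higher (1.85 ± 0.06, SE, adjusted p = 2.85e-07 in limma). Atp5b, an ATP synthase subunit, was 1.97-fold lower, or 0.50 with a common median. Of 11 tested glycolysis genes 4 were higher and 4 lower. Of 23 tested ribosomal protein genes 6 were higher and 13 lower, with a median of -0.28 that was 1.17 with a common median and 0.33 with no normalization. Relative to all genes it lay at -0.50, and at 0.40 in both other scalings.

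Transmitter genes of interneurons were mostly low or near background. Of 11 inhibitory interneuron genes on the arrays 8 were above background in cord and 3 in facial motor neurons, and their mean level per array was 11.5 to 11.8 and 7.53 to 8.43. Slc6a5, the glycine transporter of glycinergic neurons, read 9.47, 8.27 and 9.47 against 14.70, 14.52 and 14.67 and was 47.2-fold lower (-5.56 ± 0.31, SE, adjusted p = 2.5e-06 in limma). Gad1, which makes GABA, read 9.46, 6.43 and 8.77 against 14.68, 14.18 and 14.36. Slc17a6, the vesicular glutamate transporter of excitatory neurons, read 9.38, 9.98 and 10.27 against 15.43, 15.47 and 15.19 and was 44.9-fold lower (-5.49 ± 0.22). Spinal motor neuron samples held more of the glycinergic genes than facial ones: Slc6a5 was -2.88 ± 0.38 and Slc32a1, the vesicular transporter for GABA and glycine, -2.91 ± 0.43 in facial against spinal, and both passed with each array left out in turn. Of 4 tested excitatory interneuron genes 1 was higher and 2 lower, and Nts did not pass at -0.39. The higher gene was Cck, the cholecystokinin peptide, 1.83-fold higher at 14.02, 12.98 and 13.68 against 12.72, 12.66 and 12.69.

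Of 10 genes of monoamine neurons on the arrays 3 were tested, and Ddc, Maoa and Maob were lower, Maoa not with a common median (-0.07). Tph2, which makes serotonin, read 9.14, 10.41 and 10.35 in facial motor neurons and 6.28, 5.67 and 4.85 in cord, and in limma without the brightness filter its difference was 4.37 (adjusted p = 2.86e-04). Slc6a4, the serotonin transporter of the same neurons, was near background in both, at 7.58 and 5.99, and Ddc, the next enzyme of the pathway, was 4.05-fold lower. Spinal motor neurons had Tph2 at 10.08.

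Glial genes were lower in facial motor neurons and still well above background. Of 18 tested astrocyte genes 17 were lower and none higher, with a median of -2.75, and of 17 oligodendrocyte genes all 17 were lower, with a median of -2.69. With a common median 3 of the astrocyte genes and 1 of the oligodendrocyte genes were higher. In both lists, members near background in facial motor neurons passed the brightness filter through their cord level, which bears on these counts and medians. The mean level per array of the astrocyte list was 14.7 to 14.8 in cord and 11.5 to 12.2 in facial motor neurons, where 16 of 18 members were above background, and that of the oligodendrocyte list was 14.8 to 14.9 and 12.015 to 12.404, with 16 of 17. Their part in the differences above was not tested. Gfap, the astrocyte filament, read 7.26, 8.33 and 5.96, near background, against 14.23, 14.37 and 14.20, a difference of -7.08 ± 0.51 (SE, adjusted p = 8.91e-06 in limma). Aqp4, the astrocyte water channel, was 18.9-fold lower at 11.81 against 16.05, and Slc1a2, the astrocyte glutamate transporter, 5.66-fold lower at 14.14 against 16.64. Mag, myelin-associated glycoprotein, read 12.09, 12.44 and 12.26 against 16.14, 16.12 and 16.18 and was 14.8-fold lower. Mbp, myelin basic protein, was bright in both groups, at 16.54 against 17.52, and its difference of -0.98 turned to 0.36 with a common median, while its other probe sets lay between -7.97 and 1.90.

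Microglial, vascular and fibroblast genes were lower too and varied among the facial arrays. Of 15 tested microglia genes 12 were lower and none higher, with a median of -1.54, and 11 of 18 on the arrays were above background in facial motor neurons against 17 in cord. Some tested members of this list and of the 2 below passed the brightness filter through their cord level, which bears on these counts. C1qa, a complement gene of microglia, read 5.65, 10.39 and 10.35 on facial arrays 1, 2 and 3 against 12.80, 12.92 and 12.68. Of 11 tested endothelial genes 9 were lower and none higher, with a median of -1.86, and Cldn5, a tight junction protein, was 4.46-fold lower. Of 13 genes of mural cells and fibroblasts 7 were lower and none higher, and their mean level per array spanned 7.90 to 11.5 in facial motor neurons and 11.9 to 12.2 in cord. Within that list Col3a1, a fibrillar collagen, read 10.43, 11.71 and 11.03 against 12.45, 12.40 and 12.42 and passed at -1.37 ± 0.29 (SE, adjusted p = 0.00326 in limma), a call lost with all 18 arrays in one fit (adjusted p = 0.163). Lum, the matrix proteoglycan lumican, overlapped with cord at 12.02, 10.58 and 10.77 against 10.53, 11 and 11.27. Both were near background in spinal motor neurons, at 7.67 and 7.75, and in mutant facial motor neurons, at 8.66 and 8.64.

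The same contrast in SOD1 mutants used 6 other arrays. Actin's 3' to 5' ratio was 26.6 to 59.0 on the mutant facial arrays and 1.56 to 1.78 on the mutant cord arrays. This gap coincides with the mutant contrast too, and its part was not tested. There 7125 of 10916 genes passed, or 65.3%, with 4427 higher (40.6%) and 2698 lower (24.7%), and the groups did not overlap for 70.6%. Of 7298 wildtype calls among the 10628 genes tested in both, 5953 passed in mutants with the same sign, which is 81.6% of the wildtype and 85.1% of the 6995 mutant calls, and 22 passed with the opposite sign. Of 4170 wildtype calls of at least 2-fold, 3892 or 93.3% did. Pearson's r between the differences was 0.92 and Spearman's rho 0.92 across genes, which are not independent replicates.

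Most leading genes had similar values in the mutants. Isl1 read 14.97, 15.33 and 15.12 in mutant facial motor neurons and differed from mutant cord by 5.36 ± 0.24 (SE), and Shox2 read 14.62, 14.34 and 14.47 and differed by 4.91 ± 0.17. Calcb differed by 3.35, Chodl by 3.47, Kcnj14 by 4.77, Htr3a by 4.38 and Hoxb5 by -8.25, and each of these passed in limma with each array left out in turn. Gna14 was 2.19 in mutants against 4.19 in wildtype, and its mutant call was lost with no normalization (1.5, adjusted p = 0.0515). Slc18a3 passed in mutants at 1.48 (adjusted p = 5.86e-04) and not in wildtype at 0.35. Ttr was near background in mutant facial motor neurons at 7.34 against 11.25 in wildtype. Whether the genotypes differ in these contrasts was not tested.

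**Figure D4:**
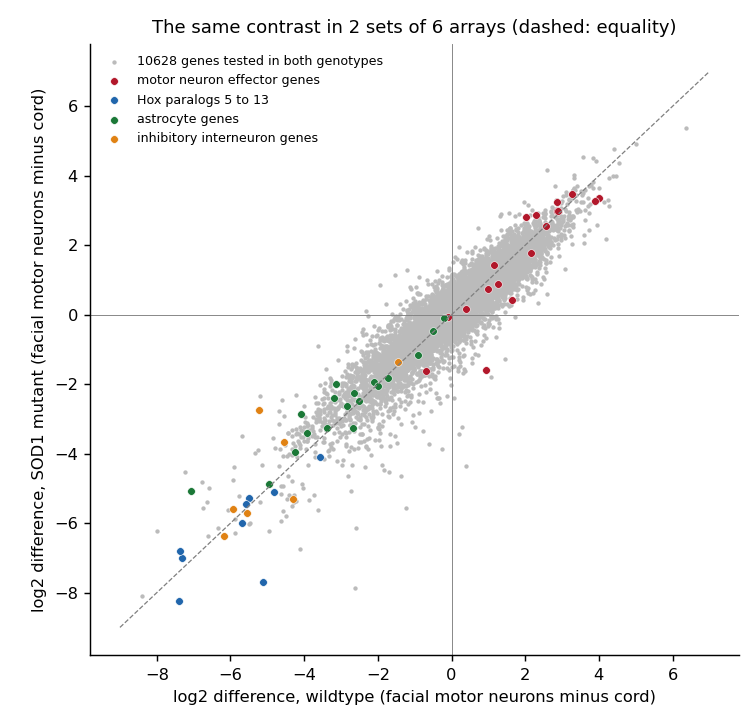
Log2 difference of facial motor neurons minus ventral cord for 10628 genes, wildtype on the horizontal and SOD1 mutant on the vertical axis, with 4 gene lists coloured. Motor neuron effector genes lie mostly to the upper right and Hox genes of groups 5 to 13, inhibitory interneuron genes and astrocyte genes to the lower left in both genotypes. Some Hox, inhibitory interneuron and astrocyte members passed the brightness filter through their cord level. The lists were chosen with earlier results of these data known.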

How the data were processed

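RNA of 18 samples was amplified linearly with a T7 method, per the labels' protocols, and read on mouse expression arrays. The authors deposited 1 linear intensity per probe set and array, and a test of the values found a 2% trimmed mean of 2500 on every array. The image and summary software and the genome build are not given in the sources used here. Of 45101 probe sets, 34945 carried 1 gene symbol in the platform annotation, 932 several and 9224 none, and those without a single symbol were not named. Of the 34945, 34741 matched a gene ID in the RefSeq gene table.

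A constant of 16 was added to each intensity before log2, and all 18 arrays were quantile normalized together. Each of 18193 genes was represented by its brightest probe set, and genes under the 40th percentile of mean level over the 6 arrays of a comparison were left out. Differences were tested with limma's moderated linear model, version 3.58.1 under R 4.3.3, its prior variance following the mean level, with Benjamini-Hochberg adjustment over all tested genes, at 0.05. Tables and plots were made with Python 3.11.15 and pandas 2.3.3. The fit was tested on simulated data.

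Groups were taken from the labels. The gene lists and members were chosen with earlier results of these data known. Named genes were every member on the arrays of the cholinergic, motor neuron, cranial and Hox lists, the anchors of the other lists with up to 3 further members of smallest p, the 15 largest non-overlapping differences in each direction and the 8 largest between facial and spinal motor neurons; the text gives part of them. Alternatives changed the normalization, the added constant, the filter, the probe set rule, the variance trend, the arrays in the fit and the replicate number as a block, and left out each array in turn.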

Additional observations from a re-analysis of the deposited data

Results flagged for a closer look

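In the direct limma test of wildtype facial against spinal motor neurons, 43 named genes passed an adjusted p of 0.05. Over all tested genes 432 of 10916 passed, or 3.96%. Some of the 43 were named for being among the largest differences of this test, so their number is not a result. The difference from cord of a called gene thus differed between the sites. The motor neuron groups share no array with each other, and both were set against the same cord arrays. All values are log2 differences, facial minus spinal.

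Position genes lower in facial motor neurons were Hoxb5 at -6.92, Hoxc8 at -6.05, Hoxd9 at -5.87, Hoxa9 at -5.77, the Hox antisense transcript Hoxb5os at -5.74, Hoxc5 at -5.40, Hoxc10 at -5.10 and Hoxb6 at -4.88. Of other transcription factors, Shox2 at 6.97, Zfhx4 at 3.99, Tbx20 at 3.65, Isl1 at 1.97, Meis2 at 1.55 and Nr2f1 at 0.96 were higher, and Mnx1 at -7.08, Isl2 at -1.85 and Irx3 at -1.42 were lower. Of motor neuron effector and receptor genes, Ecel1 was 1.64, Chodl -0.71, Mmp9 -1.93 and Chrna7 -1.79.

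Of channels and receptors, Glra2 was 3.77, Htr3a 2.79, Gria1 1.6, Kcnmb4 0.98, Kcna1 -0.73 and Cacna1e -2.34. The calcium-binding proteins Calb2 and Calb1 were at -4.25 and -4.18. Of 13 tested calcium buffer and pump genes 3 were lower and 10 did not pass, against 2.13% lower over all tested genes. This list was chosen with earlier results of these data known, so its count is descriptive only. Calb1 passed the brightness filter through its spinal motor neuron level. Pvalb, a calcium-binding protein counted with the inhibitory interneuron genes, was at -2.88. Of guidance and adhesion genes, Sema3c was 1.82, Cdh8 1.54, Sema3a -1.05 and Cdh6 -1.05. The inhibitory transporters Slc32a1 and Slc6a5 were -2.91 and -2.88.

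The astrocyte genes Gfap, Aqp4 and Atp1b2 were -3.91, -1.42 and -1.09. The matrix genes Col3a1 and Lum were 3.39 and 3.38. Bex1 was 3.85 and Nrn1 -4.09. Of the 43 calls, 12 passed with each of the 6 arrays left out in turn: Mnx1, Shox2, Bex1, Hoxb5, Hoxc8, Hoxd9, Hoxc10, Chrna7, Calb2, Slc6a5, Slc32a1 and Nrn1.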

How the results depend on the processing

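Across the alternatives, 149 of 215 named genes tested in wildtype facial motor neurons against cord kept their direction and their side of the threshold, 41 changed side and 25 reversed under at least 1 setting. With each array shifted to a common median, these turned positive: Snap25 0.50, Stmn2 1.40, Rbfox3 0.82, Nefm 1.35, Kif5b 0.01, Vamp1 0.89, Zeb1 0.94, Kcna1 0.83, Kcna2 0.95, Gria1 0.74, Gria4 0.79, Gabbr1 0.77, Htr2c 0.01, Atp5b 0.50, Pfkm 0.19, Pkm 0.64, Pgam1 0.81, Rps3 1.28, Rplp0 0.08, Rpl4 0.37, Mbp 0.36, Pmp22 1.18 and Bex1 0.64. With no normalization, Stmn2 was 0.55, Nefm 0.51, Vamp1 0.04, Kcna2 0.10, Rps3 0.43, Pmp22 0.33 and Nr2f2 -0.56, and Foxp1 ranged from -0.66 to 0.44 with 1 array left out. The cause was not tested. With every probe set of 1 symbol there were more features to test, and the calls were 13282 in wildtype facial motor neurons, 12803 in mutant facial motor neurons and 11258 in spinal motor neurons against cord. Leaving out 1 array gave 6534 to 7858 calls in the wildtype facial comparison, where 175 of 191 named calls held each time. Facial against spinal motor neurons gave 196 calls with no variance trend, 1834 with all 18 arrays in one fit, 233 with the replicate number as a block and 59 to 687 with 1 array left out. The block gave 7181 calls for facial motor neurons against cord, where deviations of same-numbered arrays correlated at -4e-04, 0.0141 and -0.0249. These values cannot show whether same-numbered samples share an animal or a batch. The number of arrays and signal near background limit dim genes, and of 3833 called genes with another bright probe set, 935 (24.4%; 694 called higher, 241 lower) had one of opposite sign past 1 log2 unit.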
